A study of Mus musculus with 10 samples.

Results

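The genes described are those of mouse potassium channels, taken as gene symbols made of Kcn, further letters and a number, with at least 10 reads in at least 3 of 10 libraries. Of 32531 genes in the tables, 96 symbols matched and 82 passed the read minimum. Those 82 comprised 47 voltage-gated genes (37 pore-forming subunits and 10 auxiliary subunits), 13 inward rectifiers, 10 calcium-activated or related Slo genes (7 pore-forming, 3 auxiliary), 9 two-pore genes and 3 noncoding transcripts whose symbols fit the pattern. The 14 symbols under the minimum reached at most 28 reads in any library.

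Potassium channels let potassium leave the cell along its gradient and so pull the membrane towards rest. Voltage-gated channels open on depolarisation and end the action potential, inward rectifiers pass current best near rest and include the G protein-gated channels of neurons and the glial channels that buffer potassium, calcium-activated channels follow firing with an afterhyperpolarisation, and two-pore channels carry a steady leak. In cortex, each class has members known from excitatory neurons, fast-spiking interneurons, glia or vessels.

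All libraries came from cerebral cortex of S100a10-EGFP/Rpl10a mice (line ES691), in which regulatory sequences of S100a10 drive a tagged ribosomal protein. Anti-EGFP beads pulled down tagged polysomes, and RNA from this immunopurification (IP) was sequenced from mice of 3 groups, saline self-administration, cocaine self-administration and yoked controls, with 3 libraries each. A single unpurified input came from the saline group. The labels give the cell type as neurons. They do not state age, sex, what the yoked animals received, how many animals made a library or whether replicates were separate animals, so a p-value here weighs differences against library-to-library spread that could be technical. Each group was sequenced on a lane of its own, and the 2 cannot be told apart. The bait is set by the S100a10 sequences and not by a layer or projection, so any cell type that uses them can enter the IP.

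Read counts assigned to genes ran from 38653752 to 50898401 in the IP libraries, and the input held 69974908. Levels below are CPM, reads scaled by library size and TMM factors. The 10 neuronal markers summed to 23050 to 26369 CPM in saline IP and 23233 CPM in the input, and 0 of 10 were called by edgeR's quasi-likelihood test. Markers of meningeal fibroblasts summed to 1653 to 2330 CPM in saline IP against 99.9 CPM in the input, with 10 of 10 higher. Those of mural cells summed to 288 to 352 against 42 CPM (6 of 10 higher, with Rgs5, Notch3, Cspg4 and Abcc9 negative and not called) and those of endothelium to 67.0 to 82.8 against 9.1 CPM (3 of 8 higher). Oligodendrocyte markers summed to 291 to 657 against 1551 CPM (4 of 10 lower), and interneuron markers to 582 to 906 against 1363 CPM (3 of 10 lower, Pvalb among them, with Npy and Sst positive and not called). Each marker of these lists was detected in at least 1 IP library. In bulk RNA, fewer cells of a type, fewer tagged cells among them and less RNA per cell cannot be told apart.

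Saline IP was first compared with the saline input, which asks which channel transcripts the tagged ribosomes hold more or less of than whole cortex. Of the 82 genes, 16 were called (adjusted p under 0.05, edgeR's quasi-likelihood test over 18437 genes), 4 higher and 12 lower in IP, against 11.3% of all genes tested. The higher genes were Kcnj13, Kcne4, Kcnk5 and Kcnk2. The lower genes took in glial inward rectifiers, channels of fast-spiking cells, small-conductance and sodium-activated channels, and the imprinted noncoding RNA Kcnq1ot1. Among all genes tested, calls were mostly the other way, with 7.07% higher and 4.26% lower. Only 20 of the 82 genes had a positive log2 fold change, and their median was -0.36, against 0.02 over all genes tested.

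With 1 input library, the test borrows the variability of the IP libraries for it. The count rested on the libraries kept. With saline replicate 1 left out, 9 genes were called (3 higher, 6 lower), against 8% of all genes. With replicate 3 of every IP group left out, an alternative added after the data were seen, 33 genes were called (5 higher, 28 lower), against 19% of all genes, and all 16 stayed among them. The mean of the 3 IP groups against the input called 18 genes, 4 higher and 14 lower, against 13.7% of all genes tested (7.3% higher and 6.36% lower). These were the 16 with Kcnd3 and Kcnk10 added, and without the replicate 3 libraries they became 35 (4 higher, 31 lower), against 19.6% of all genes.

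**Figure D1:**
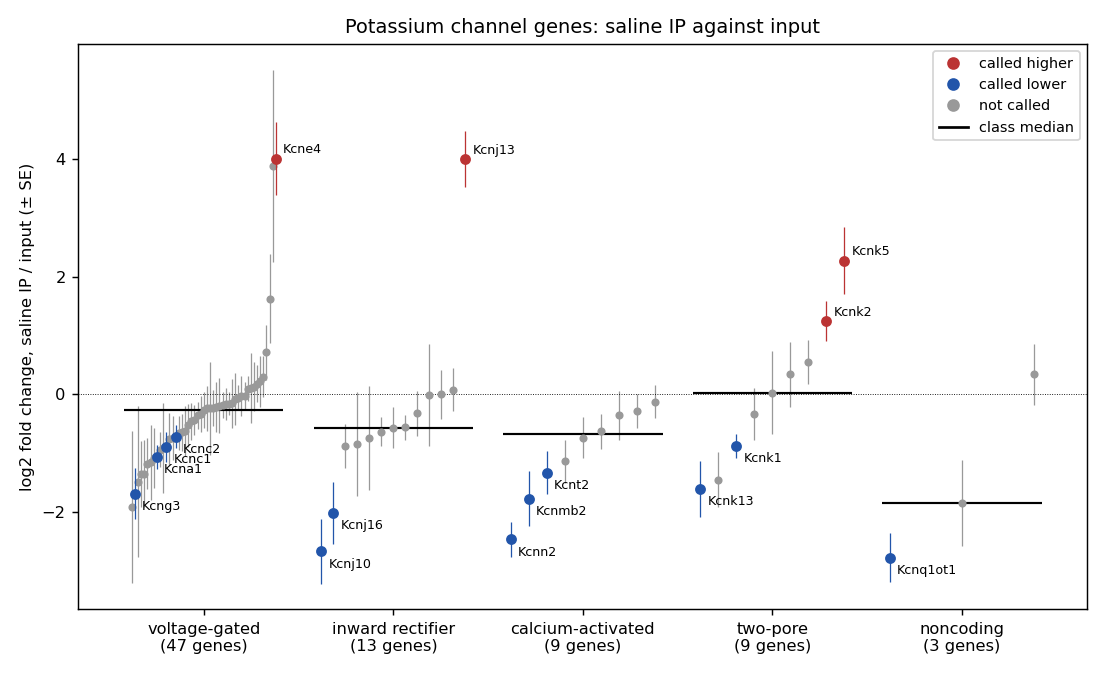
Log2 fold change of each potassium channel gene in saline IP (3 libraries) against the saline input (1 library), by class, with standard errors from edgeR; red points were called higher, blue points lower and grey points were not called, and black lines are class medians. Kcnmb1, with 0 reads in the input, is not drawn. Of the called genes, Kcne4 and Kcnj13 stand near 4.0, while Kcnj10, Kcnj16, Kcnn2 and Kcnq1ot1 lie below -2.

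Promoters of 3 called genes are shown as examples from both directions and from 2 classes: Kcnj13, the inward rectifier higher in IP, Kcnj10, the inward rectifier with the lowest log2 fold change, and Kcnc1, a lower voltage-gated gene. Each is the 250 bases before the start in RefSeq (GRCm38.p6), 5′ to 3′ on the gene's strand, with CG dinucleotides in capitals. They lie at chr1:87394730-87394979 (minus strand), chr1:172340960-172341209 (plus strand) and chr7:46396218-46396467 (plus strand).
Kcnj13: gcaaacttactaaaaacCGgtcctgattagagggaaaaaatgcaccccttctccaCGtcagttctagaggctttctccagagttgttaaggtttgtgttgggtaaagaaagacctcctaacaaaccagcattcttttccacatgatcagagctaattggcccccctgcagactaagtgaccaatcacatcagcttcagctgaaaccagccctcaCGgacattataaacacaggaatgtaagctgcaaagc
Kcnj10: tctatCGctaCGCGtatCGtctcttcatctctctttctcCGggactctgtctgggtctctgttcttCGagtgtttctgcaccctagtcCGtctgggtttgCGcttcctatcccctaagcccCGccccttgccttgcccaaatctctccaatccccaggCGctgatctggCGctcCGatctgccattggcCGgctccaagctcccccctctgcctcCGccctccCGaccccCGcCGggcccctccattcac
Kcnc1: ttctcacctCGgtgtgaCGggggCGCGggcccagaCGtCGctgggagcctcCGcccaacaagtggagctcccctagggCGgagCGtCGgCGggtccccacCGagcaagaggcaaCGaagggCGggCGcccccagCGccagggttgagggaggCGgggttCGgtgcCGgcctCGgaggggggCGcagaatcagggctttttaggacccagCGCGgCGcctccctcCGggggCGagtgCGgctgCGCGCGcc
The Kcnj13 window held 3 CG dinucleotides, that of Kcnj10 held 17 and that of Kcnc1 held 30. Over the 84 promoters of the 60 genes that matched RefSeq by symbol, the median was 8, against 6 over all 32851 promoters. The letters TATAAA, on either strand, were in the window of Kcnj13, in 1 of 4 windows of Kcnj16 and in a window of Kcnj9, that is in 3.57% of these promoters against 12.4% of all promoters. The letters TGACG, on either strand, stood in 15.5% of these promoters and in 17.8% of all, and TGACGTCA stood in 0 of the 84 against 1.55% of all. These are matches of letters and not binding sites.

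Voltage-gated genes made up 75.1% of the summed level per kilobase of exon of the 82 genes in saline IP, and 75.6% in the input. The highest levels per kilobase in saline IP belonged to auxiliary subunits. Kcnip3, a calcium-binding subunit of Kv4 channels, stood at 56.6 ± 6.30 CPM per kb (SD, n = 3) in saline IP and 52.9 in the input. Kcnab3, a beta subunit of Kv1 channels, followed at 47.4 ± 12.3 against 41.9 CPM per kb, and Kcnip4, another Kv4 subunit, at 34.8 ± 3.75 against 35.4. None of these 3 was called, and the sign of each log2 fold change turned under some alternative. Kcnip3 and Kcnab3 differed by less than the spread of Kcnab3. The highest pore-forming gene was Kcna1, at 29.6 ± 3.90 CPM per kb in saline IP. It did not differ beyond the spread from Kcnj13 (28.2 ± 6.90) or Kcna2 (24.7 ± 7.05). In the input Kcna1 stood at 61.6 CPM per kb, above Kcnip3.

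The 47 voltage-gated genes had a median log2 fold change of -0.26 in saline IP against input, which became -0.51 without saline replicate 3. Among the 37 pore-forming ones, 0 were higher and 4 were lower in saline IP (10.8% called, against 11.3% of all genes tested). Their median log2 fold change was -0.44. Kcna1, the Kv1.1 subunit of axons, gave 126, 135 and 162 CPM in saline IP and 295 CPM in the input. All 9 IP libraries of the study were below the input. The log2 fold change was -1.06 ± 0.20 (SE) at an adjusted p of 0.00389 by edgeR's quasi-likelihood test, and Kcna1 was called under all 15 alternatives.

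Kcnc1 and Kcnc2 encode Kv3.1 and Kv3.2, whose fast closing lets interneurons fire at high rates. Kcnc1 (chr7:46396497-46438704) stood at 41.4, 57.9 and 63.3 CPM in saline IP against 101 CPM in the input, and Kcnc2 at 51.0, 54.6 and 57.7 against 89.4 CPM. Every IP library was below the input for both. The log2 fold changes were -0.89 ± 0.26 (edgeR, adjusted p = 0.0416) and -0.72 ± 0.20 (edgeR, adjusted p = 0.0337). Both calls were lost without saline replicate 1 (adjusted p 0.104 and 0.0845), saline replicate 2 (0.0520 and 0.0602) or cocaine replicate 2 (0.0618 and 0.0568), and that of Kcnc1 also without cocaine replicate 1 (0.0588) or with the trend on gene length removed (0.0625). A fit of the saline and input libraries alone lost both too (0.0646 and 0.0848). Over all alternatives the log2 fold change ran from -1.02 to -0.72 for Kcnc1 and from -0.77 to -0.62 for Kcnc2. The interneuron markers Pvalb, Erbb4 and Reln were lower in the same libraries, while Npy (0.80) and Sst (0.27) had positive log2 fold changes, and their part in these values was not tested.

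Kcng3, a silent subunit that joins Kv2 channels, stood at 2.12, 4.18 and 2.61 CPM against 9.54 CPM in the input. Its log2 fold change was -1.68 ± 0.44 (edgeR, adjusted p = 0.0235), and the call was lost without saline replicate 1 (adjusted p 0.0748). Kcnd3, the Kv4.3 subunit of A-type currents, stood at 35.7, 33.5 and 52.3 CPM against 77.7 CPM and was not called for saline IP alone (log2 fold change -0.94 ± 0.30, edgeR adjusted p = 0.0598). For the mean of the IP groups its value was -0.90 ± 0.26 (edgeR, adjusted p = 0.0372), and leaving out cocaine replicate 1, cocaine replicate 2, saline replicate 1 or yoked replicate 2 took the adjusted p to 0.0546, 0.0567, 0.0587 and 0.0572.

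Of the 10 auxiliary subunits, 1 was called (10%, against 11.3% of all genes tested). Kcne4, a single-span subunit that damps Kv1 and KCNQ1 currents, stood at 9.01, 4.54 and 4.49 CPM in saline IP and at 0.373 CPM in the input. All 9 IP libraries were above the input, the lowest at 2.62 CPM in yoked replicate 3. The log2 fold change was 4.0 ± 0.62 (edgeR, adjusted p = 0.000848), called under all 15 alternatives. A further pair of low genes was not called. Kcne1l had 15, 18 and 11 reads in saline IP against 82 in the input. Kcnq1, the cardiac and epithelial KCNQ subunit that KCNE proteins join, had 31, 25 and 10 reads against 2. With all replicate 3 libraries left out, Kcnq1 was called higher for saline IP. Meningeal fibroblast and mural cell markers were also higher in saline IP than in the input. Yoked replicate 3, the lowest library for Kcne4, had the highest marker sums (2521 and 421 CPM). Saline replicate 1, the highest for Kcne4, had 1879 and 288 CPM. In cocaine IP, Kcne4 (5.09, 3.39 and 5.95 CPM) had the same order of replicates as the sums. These were 1503, 1388 and 2390 CPM for fibroblast markers and 254, 230 and 376 CPM for mural cell markers. The part of these cells in the Kcne4 level was not tested.

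Of the 13 inward rectifiers, 1 was higher and 2 were lower (23.1% called, against 11.3% of all genes tested). The class median was -0.56. Kcnj13 (chr1:87386363-87394729, minus strand) encodes Kir7.1, known from transporting epithelia such as choroid plexus and retinal pigment epithelium. Its levels were 35.5, 27.2 and 44.7 CPM in saline IP and 2.24 CPM in the input. The 9 IP libraries ran from 24.2 to 48.2 CPM, all above the input, and cocaine and yoked libraries overlapped those of saline. The log2 fold change was 4.0 ± 0.47 (edgeR, adjusted p = 0.000101), a 16.0-fold difference, called under all 15 alternatives.

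Per kilobase, Kcnj13 was the highest inward rectifier in saline IP (28.2 ± 6.90 CPM per kb, against 1.76 in the input) and 6th of all 82 genes. Its exons overlap 623 bases of Gigyf2 on the other strand, and the counting's strand setting is not given in the sources used here. Gigyf2 itself stood at 82.6, 86.4 and 91.2 CPM in saline IP and 95.7 CPM in the input. Meningeal fibroblast markers were higher in the same libraries (10 of 10), while those of choroid plexus and ependyma were mixed. Of those 7, Ccdc153 and Kl were called higher, 4 had negative log2 fold changes that were not called (Folr1 -2.81, Ttr -1.80, Otx2 -0.63, Foxj1 -0.08) and the sum was 28.1 to 40.7 CPM against 13.9 CPM. The part of either cell type in the Kcnj13 level was not tested.

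Kcnj10 and Kcnj16 encode Kir4.1 and Kir5.1, which pair in astrocytes and oligodendrocytes and clear potassium from the extracellular space. Kcnj10 (chr1:172341210-172374085) stood at 6.03, 13.0 and 7.72 CPM in saline IP against 56.5 CPM in the input, and Kcnj16 at 2.40, 4.38 and 2.30 against 12.2 CPM. Every IP library was below the input for both genes. The log2 fold changes were -2.67 ± 0.55 (edgeR, adjusted p = 0.00633) and -2.01 ± 0.52 (edgeR, adjusted p = 0.0243). Kcnj10 was called under all 15 alternatives, and the Kcnj16 call ended when saline replicate 1 (adjusted p 0.0818) or 3 (0.0520) was left out. Astrocyte markers went both ways, with Aqp4, Fgfr3 and Slc1a2 lower and Gjb6 and Aldh1l1 higher, and summed to 1158 to 1356 CPM against 2406 CPM. Their part, and that of the oligodendrocyte markers, was not tested.

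The G protein-gated genes Kcnj3 (GIRK1) and Kcnj9 (GIRK3), which carry slow inhibition by GABA-B and other receptors, followed per kilobase in saline IP. Kcnj9 (8.91 ± 2.61 CPM per kb) did not differ beyond its spread from Kcnj4 (Kir2.3, 8.87 ± 2.48), and in the input Kcnj4 was the higher of the pair (13.1 against 8.41). Kcnj3 stood at 86.6, 87.0 and 110 CPM in saline IP against 139 CPM, with every IP library below the input. It was not called (log2 fold change -0.56 ± 0.21, edgeR adjusted p = 0.112), but was called lower with all replicate 3 libraries left out. Kcnj9 stood at 37.3, 27.4 and 49.8 CPM around an input of 36.1 CPM. It was higher than the input in 6 of 9 IP libraries.

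**Figure D2:**
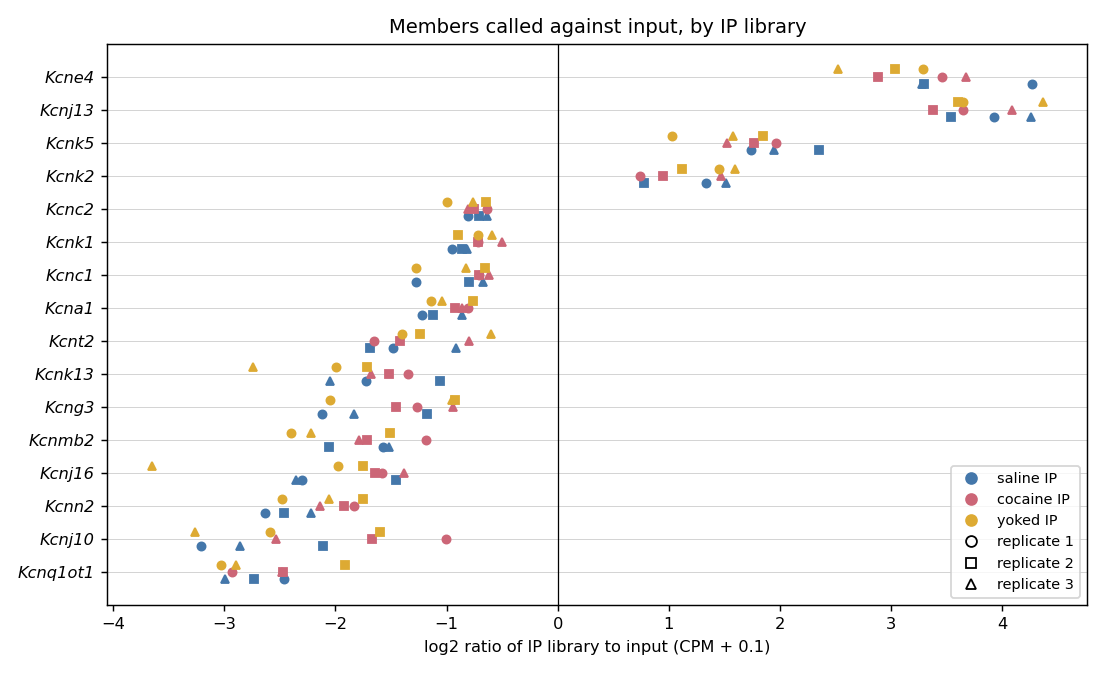
Log2 ratio of each IP library to the saline input (after adding 0.1 CPM) for the 16 genes called for saline IP; colours mark the 3 IP groups and symbols the replicate. Each gene keeps its side of 0 in all 9 libraries, with Kcne4, Kcnj13, Kcnk5 and Kcnk2 to the right.

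Of the 10 calcium-activated and related genes, 3 were called lower and 0 higher (30%, against 11.3% of all genes tested). The class median was -0.68. Kcnn2, the SK2 channel of the afterhyperpolarisation, stood at 3.10, 3.52 and 4.18 CPM in saline IP against 19.8 CPM in the input. The highest of the 9 IP libraries was at 5.80 CPM. Its log2 fold change of -2.46 ± 0.30 (edgeR, adjusted p = 0.000113) was called under all 15 alternatives. Kcnt2, the sodium-activated Slick channel, stood at 23.7, 20.5 and 35.3 CPM against 66.6 CPM. Kcnmb2, the beta subunit that inactivates BK channels, stood at 1.37, 0.949 and 1.43 CPM against 4.26 CPM. Their log2 fold changes were -1.33 ± 0.36 (edgeR, adjusted p = 0.0307) and -1.77 ± 0.47 (edgeR, adjusted p = 0.0271). Without saline replicate 1 the adjusted p rose to 0.0921 for Kcnt2 and 0.0523 for Kcnmb2, and without saline replicate 2 to 0.0660 and 0.0626.

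The highest genes of the class per kilobase were the BK channel Kcnma1 (6.27 ± 2.66 CPM per kb in saline IP, 8.03 in the input) and its neuronal beta subunit Kcnmb4 (5.25 ± 0.775 against 5.73), which do not differ beyond their spread. Neither was called, but Kcnma1 was called lower with all replicate 3 libraries left out. Kcnma1 gave 81.2, 79.5 and 158 CPM in saline IP. Its replicate 3 lay above the input of 136 CPM while replicates 1 and 2 lay below it. Kcnmb1, the beta subunit of smooth muscle, had 0 reads in the input, which allows up to 0.0448 CPM by 3 reads, and 0, 13 and 0 reads in saline IP. In cocaine IP it had 3, 0 and 57 reads, and in yoked IP 23, 9 and 28. The class median is -0.68 with Kcnmb1 at its fitted value or at that bound, since it is the only positive gene of the 10 either way.

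Two-pore genes split, with 2 of 9 higher and 2 lower (44.4% called, against 11.3% of all genes tested). The class median was 0.03. Kcnk2, the stretch- and lipid-sensitive TREK-1 channel, stood at 118, 80.2 and 134 CPM in saline IP against 46.9 CPM in the input, and all 9 IP libraries were above the input. Its log2 fold change was 1.24 ± 0.34 (edgeR, adjusted p = 0.0336), a call that ended when saline replicate 1 (adjusted p 0.0780) or 3 (0.0564) was left out. Kcnk5, the acid-sensitive TASK-2 channel, was far less abundant at 1.63, 2.55 and 1.90 CPM against 0.418 CPM. All 9 IP libraries exceeded the input here too. The difference was 2.27 ± 0.57 on the log2 scale (edgeR, adjusted p = 0.0198), with an adjusted p of 0.0699 in a fit of the saline and input libraries alone.

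Kcnk1, the TWIK-1 channel, was lower at 43.3, 46.0 and 47.5 CPM against 83.7 CPM in the input. The difference was -0.88 ± 0.20 on the log2 scale (edgeR, adjusted p = 0.0110), called under all 15 alternatives. Per kilobase, Kcnk2 (22.4 ± 5.62 CPM per kb) and Kcnk1 (20.4 ± 0.934) did not differ beyond their spread in saline IP, while in the input Kcnk1 stood at 37.5 and Kcnk2 at 9.48 CPM per kb. Kcnk4 (TRAAK) was well below them at 1.26 ± 0.311 CPM per kb.

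Kcnk13, the THIK-1 channel known from microglia, stood at 1.43, 2.33 and 1.12 CPM in saline IP against 4.94 CPM in the input. Its log2 fold change was -1.60 ± 0.47 (edgeR, adjusted p = 0.0446), called under 8 of 15 alternatives, the fewest of the 16 genes. Leaving out 1 library ended the call for saline replicates 1 (adjusted p 0.108) and 3 (0.0879), cocaine replicate 1 (0.0640), cocaine replicate 2 (0.0668), yoked replicate 1 (0.0507) and yoked replicate 2 (0.0513), and so did a fit of the saline and input libraries alone (0.0721). Microglial markers summed to 31.5 to 40.1 CPM against 49.5 CPM, with Cx3cr1 and P2ry12 lower and Tmem119 higher, and their part was not tested. Kcnk10 (TREK-2) was called for the mean of the IP groups (log2 fold change -1.41 ± 0.40, edgeR adjusted p = 0.0333) and lost there without cocaine replicate 2 (0.0564). For saline IP alone it gave 1.17, 1.94 and 2.47 CPM against 5.08 CPM.

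Of the noncoding transcripts, Kcnq1ot1, the antisense RNA that silences its imprinted domain and is known to stay in the nucleus, stood at 2.20, 1.81 and 1.5 CPM in saline IP and 12.6 CPM in the input. Its log2 fold change was -2.77 ± 0.41 (edgeR, adjusted p = 0.000615), and it moved to -1.93 once a trend on gene length was removed. Its model overlaps 121 bases of Kcnq1 exons on the other strand. All told, 29 of the 82 genes share exon bases with another gene, 6 of the 16 called ones among them, and reads of such genes cannot be told apart without the strand setting.

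Genes whose products bind or cluster these channels were taken from a list of 34, of which 33 were tested. None was higher and 6 were lower in saline IP, against 7.07% and 4.26% of all genes tested. The median log2 fold change of the 33 was -0.35. Those lower included Cntn2 (-1.34 ± 0.31) and Cntnap2 (-0.72 ± 0.20), which hold Kv1 channels beside the node of Ranvier, Dlg2 (-0.69 ± 0.18), a scaffold of the same channels, Kctd8 (-1.35 ± 0.39), a GABA-B receptor subunit, and Rgs7bp (-0.75 ± 0.20), a regulator of G protein-gated channels. The adjusted p-values of these 5 in edgeR's test ran from 0.0138 to 0.0415.

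The libraries of a group differed in a shared way. In 39 of the 82 genes replicate 3 was the highest of its group in all 3 IP groups, and in 3 genes (Kcnab3, Kcne1l, Kcnk13) it was the lowest in all 3, against 16.1% and 13.4% of all genes tested. Kcnma1, the BK channel described above, was 1 of the 39, with 81.2, 79.5 and 158 CPM in saline IP, 88.7, 87.7 and 155 in cocaine IP and 85.7, 109 and 154 in yoked IP. Among all genes tested, those with replicate 3 highest in each group had a median exonic length of 5510 bases, and those with it lowest 3673. For the 82 genes these medians were 5152 and 2865 bases. Inward rectifiers went the other way, with 3213.5 bases for the 6 with replicate 3 highest and 4685 for the other 7. The part of length in this pattern was not tested. The median log2 ratio to input of voltage-gated genes was -0.53 and -0.51 in saline replicates 1 and 2 and -0.06 in replicate 3. That of two-pore genes was -0.22 and -0.16, against 0.30 in replicate 3. In each saline library two-pore genes were highest and calcium-activated genes lowest. In cocaine replicate 1 inward rectifiers were the lowest instead (-0.70, against -0.68 for calcium-activated genes). The same held in yoked replicate 2 (-0.59 against -0.56).

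**Figure D3:**
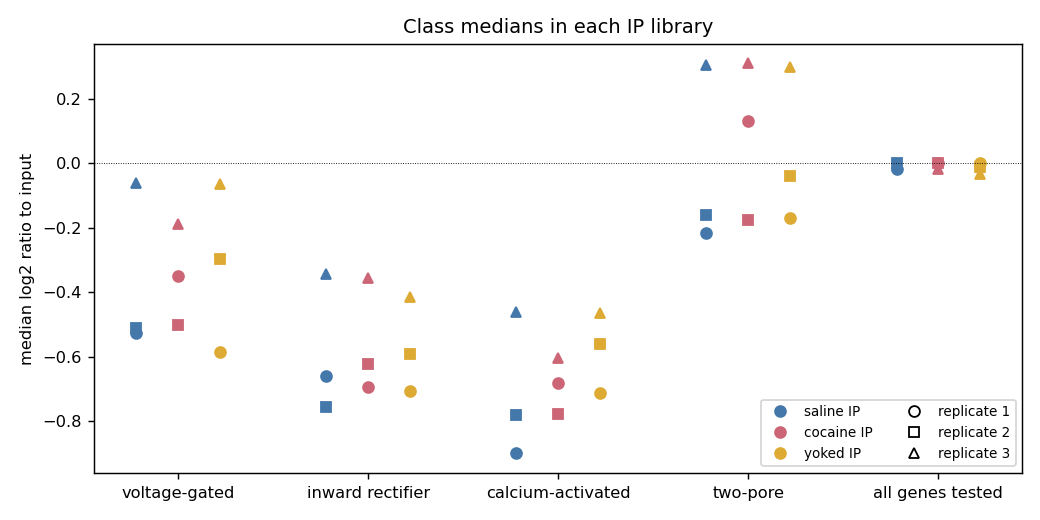
Median log2 ratio to the saline input of the genes of each class in each of the 9 IP libraries, beside the median of all genes tested; colours mark the group and symbols the replicate. Triangles, the libraries of replicate 3, lie above the other libraries of their group in all 4 classes, while the medians of all genes stay between -0.03 and 0.

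The 3 IP groups were then compared with each other, which asks whether saline, cocaine and yoked mice differed in these transcripts. By edgeR's quasi-likelihood test, 0 of the 82 genes were called in cocaine against saline, yoked against saline, cocaine against yoked, cocaine and yoked against saline, or the joint test of any group difference, against 0% of 16642 genes tested in each. DESeq2 also called 0 of all genes. At an unadjusted p under 0.05, edgeR's count was 1 gene for cocaine against saline, 2 for yoked against saline, 1 for cocaine against yoked, 1 for cocaine and yoked against saline and 0 for the joint test. As shares of the 82 genes these were 1.22%, 2.44%, 1.22%, 1.22% and 0%, against 3.18%, 2.39%, 0.955%, 3.54% and 1.61% of all genes tested. Class medians of the log2 fold change for cocaine against saline were 0.05 in voltage-gated, 0.01 in inward rectifier, 0.11 in calcium-activated and 0.11 in two-pore genes, against -0.02 over all genes. For yoked against saline, which shares the saline libraries, they were 0.03, 0.00013, 0.17 and -0.12, against -0.01 over all genes. Without saline replicate 3, the calcium-activated medians became 0.34 and 0.41, and the two-pore median for yoked against saline 0.10. The voltage-gated and inward rectifier medians became 0.25 and 0.16 for cocaine against saline and 0.17 and 0.16 for yoked against saline, and leaving out other single libraries turned the sign of each of these 4 medians.

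Kcnj10 had the smallest p for cocaine against saline. Cocaine libraries gave 28.0, 17.7 and 9.67 CPM, saline libraries 6.03, 13.0 and 7.72 CPM and yoked libraries 9.33, 18.6 and 5.78 CPM. Cocaine replicate 3 lay inside the saline range, so the groups overlapped. The log2 fold change was 1.04 ± 0.44, with an unadjusted p of 0.0358 and an adjusted p of 0.990 in edgeR's test. Astrocyte markers summed to 1417 to 1928 CPM in cocaine IP against 1158 to 1356 CPM in saline IP, with 0 of 10 called, 8 of 10 positive and a median log2 fold change of 0.32. Oligodendrocyte markers summed to 325 to 845 CPM against 291 to 657 CPM, with 0 of 10 called, 9 of 10 positive and a median of 0.53. The part of either list in the Kcnj10 values was not tested.

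Groups did not overlap for 3 genes in cocaine against saline, where 8.97% of all genes did so. Kcnn2 was higher, at 5.48, 5.17 and 4.43 CPM against 3.10, 3.52 and 4.18 CPM, with a log2 fold change of 0.47 ± 0.25 (edgeR, adjusted p = 0.990). Kcnk1 was higher too, at 50.9, 50.8 and 59.0 CPM against 43.3, 46.0 and 47.5 CPM. Kcnd1, the Kv4.1 subunit, was lower at 2.15, 1.93 and 2.55 CPM against 2.62, 2.62 and 3.82 CPM. Kcnip4 was next by p, at 177, 153 and 135 CPM against 117, 142 and 120 CPM in saline IP, and overlapped by 1 library (log2 fold change 0.28 ± 0.16, edgeR adjusted p = 0.990).

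For yoked against saline, 1 gene did not overlap, where 6.08% of all genes did so. Kcnj8, the Kir6.1 subunit of ATP-sensitive channels in pericytes, gave 0.181, 0.364 and 0.316 CPM in yoked IP and 0.705, 0.497 and 1.69 CPM in saline IP. Every yoked library was below every saline library, and the cocaine libraries, at 0.973, 0.613 and 0.225 CPM, spanned both. The log2 fold change was -1.73 ± 0.67 with an unadjusted p of 0.0220 and an adjusted p of 0.9998 in edgeR's test. Mural cell markers summed to 266 to 421 CPM in yoked IP and 288 to 352 CPM in saline IP. Of the 10 markers, 6 had positive and 4 had negative log2 fold changes for yoked against saline, with a median of 0.04. Among them the pericyte genes Rgs5 (-0.62 ± 0.31) and Abcc9 (-0.53 ± 0.75), the latter a partner subunit of Kir6.1, had negative log2 fold changes and Notch3 (0.57 ± 0.80) and Cspg4 (0.31 ± 0.50) positive ones, none of them called. Their part in the Kcnj8 values was not tested. Kcne4 followed, at 4.51, 3.79 and 2.62 CPM in yoked IP against 9.01, 4.54 and 4.49 CPM (log2 fold change -0.73 ± 0.33, edgeR adjusted p = 0.9998), and 1 yoked library lay inside the saline range. Kcnk5 came next by p and had a log2 fold change of -0.55 ± 0.34.

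For cocaine against yoked, 4 genes did not overlap, where 4.74% of all genes did so. Kcnk10 stood at 3.08, 2.15 and 2.55 CPM in cocaine IP and 0.856, 1.99 and 1.49 CPM in yoked IP, with a log2 fold change of 0.83 ± 0.38, an unadjusted p of 0.0487 and an adjusted p of 0.99996 in edgeR's test. Kcnj16 was at 4.01, 3.85 and 4.64 against 3.03, 3.56 and 0.880 CPM (log2 fold change 0.73 ± 0.43), and Kcnk13 at 1.88, 1.66 and 1.47 against 1.17, 1.44 and 0.655 CPM. The noncoding Kcnd3os was lower, at 0.272, 0.460 and 0.388 against 0.856, 0.651 and 0.497 CPM. The glial genes Kcnj16 and Kcnk13 thus showed their lowest level in the same library, yoked replicate 3.

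**Figure D4:**
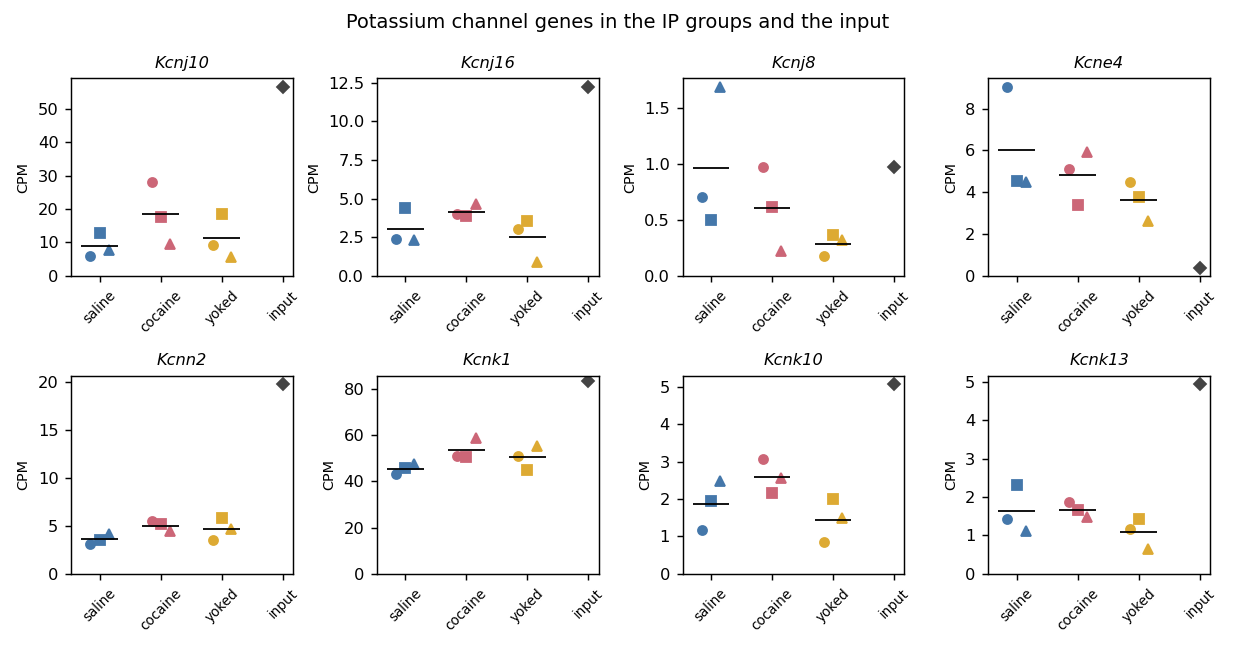
Level (CPM) of 8 potassium channel genes in each IP library and the saline input, with symbols for the replicate (circle 1, square 2, triangle 3) and bars for group means. For Kcnj10, Kcnj16, Kcnn2, Kcnk1, Kcnk10 and Kcnk13 the input lies above all 9 IP libraries, for Kcne4 it lies below them.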

How the data were processed

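The authors deposited raw read counts by gene symbol in a table per library (10 libraries). The submitters' processing notes name STAR 2.0.0e, HTSeq and the build mm10. Annotation and strand setting: not given in the sources used here. Library sizes and tests exclude 6 entries that name no gene (47.4% to 54.5% of all reads in a table). The genes, classes and lists were chosen with earlier results of these data known. A matching gene was left out of the members, and values of some other genes are not reported here.

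Genes were tested with the quasi-likelihood F-test of edgeR 4.0.16 under R 4.3.3, after TMM scaling and a filterByExpr minimum of 10, and p-values were adjusted by Benjamini-Hochberg over all genes tested, with calls at an adjusted p under 0.05. The IP groups were fitted together (9 libraries, 16642 genes), and IP against input in a fit of all 10 libraries (18437 genes). All 82 genes were tested in both. CPM per kb divides CPM by exonic length in GENCODE (GRCm38, the assembly of mm10). Scripts were tested on simulated data. Pairs of libraries within a group differed beyond counting noise (chi-square per degree of freedom 32.8 to 114).

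Named genes were those called in a comparison, the 3 highest per kilobase of each class, the highest and lowest log2 fold change of each class against input, and the 3 with the smallest p in each contrast between IP groups. Kcnd1, Kcnd3os and Kcnq1 were chosen after their values were seen. Alternatives were DESeq2 1.42.0, RLE factors, no filter on low counts, a length offset, fits of the groups compared alone, a replicate block, each library left out and, added later, all replicate 3 libraries left out.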

Additional observations from a re-analysis of the deposited data

How the results depend on the processing

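Over the alternatives, values were counted only for genes named by the rules above, each in the comparisons that named it. Of these values, 786 kept their direction and side of the threshold, 32 lost a call, 2 gained a call and 9 changed sign. Calls gained by other genes, or in other comparisons, are not in these counts. With all replicate 3 libraries left out, 17 genes gained a call for saline IP against input. Leaving out 1 library gave 9 to 17 genes called for saline IP against input, the lowest without saline replicate 1, and 16 to 23 for the mean of the IP groups; leaving out all replicate 3 libraries gave 33 and 35. The voltage-gated median for saline IP against input, -0.26 with all libraries, was -0.51 with all replicate 3 libraries left out and ran from -0.51 to -0.23 with 1 library left out, the lowest without saline replicate 3. Calcium-activated medians ran from -0.035 to 0.34 for cocaine against saline and from 0.038 to 0.41 for yoked against saline, and two-pore medians for yoked against saline from -0.29 to 0.10, each highest without saline replicate 3. For cocaine against saline, voltage-gated medians ran from -0.02 to 0.25, inward rectifier medians from -0.14 to 0.16 and two-pore medians from -0.05 to 0.22; for yoked against saline, voltage-gated medians ran from -0.10 to 0.17 and inward rectifier medians from -0.06 to 0.16. No call was attached to the signs that turned. With 1 library left out, Kcnab3 ran from -0.050 (without saline replicate 1) to 0.31, Kcnip3 from -0.0062 (without saline replicate 3) to 0.14, Kcnip4 from -0.14 to 0.028 (without saline replicate 1; 0.0049 without saline replicate 3) and Kcnj9 from -0.16 (without saline replicate 3) to 0.25. Without all replicate 3 libraries, Kcnip3 was -0.0054, Kcnip4 0.0056 and Kcnj9 -0.16, and with the length offset Kcnip3 was -0.00033. The causes were not tested. Correlations of same-numbered libraries' deviations ran from -0.036 to 0.321, highest among the replicate 3 libraries (0.283 to 0.321). They were not all above 0.1, not every library correlated best with its own number and the labels tie the numbers to nothing, so they were not treated as pairs; with a replicate block, 0 genes were called in each contrast between IP groups, as without it. No block could be fitted for the input, which is 1 library. Its counting error limits genes with few reads, such as Kcnmb1 and Kcnq1.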
